A study of Mus musculus with 96 samples.

Results

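Esr1 and Pgr are the 2 steroid receptor genes among 96 assays that were run on each of 96 single cells from the mouse uterus, and they were found by the assay names er and pr. In a RefSeq table of mouse genes each of these short names fits 2 genes, er also Sfn and pr also Tmem37, and they were read as Esr1 and Pgr. Uteri of mice at postnatal day 7 were dispersed with collagenase. Single CD326+ cells, CD326 being the adhesion protein EpCAM of epithelia, were sorted into plates and measured by quantitative PCR. The labels give 1 group, with no strain, genotype, treatment, control or animal, so cells were not replicates of a condition and no test between groups was possible.

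Esr1 encodes estrogen receptor alpha, a transcription factor of the nuclear receptor family that estradiol activates and that drives growth of the uterus. Pgr encodes the progesterone receptor of the same family, and it is a textbook target gene of estrogen receptor alpha in the reproductive tract. In the adult uterus the balance of both receptors between epithelium and stroma governs the cycle and implantation. At the age studied, gland formation in the mouse uterus has barely begun.

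RefSeq (GRCm38.p6) places Esr1 on the plus strand of chromosome 10 (4611989 to 5005633) and Pgr on the plus strand of chromosome 9 (8898900 to 8968611). Its promoter table, windows from 250 bases before to 50 after a start site, held 2 windows of Esr1 and 1 of Pgr. They were searched on both strands because Pgr is a known estrogen target. The full estrogen response element, the half-site GGTCA followed after any 3 bases by its reverse complement, was in none of the 3 windows and in 0.0700% of 32851 windows. The half-site alone was in 1 Esr1 window, 16 bases into the transcript, and in 40.5% of all windows. The Pgr window (8899583 to 8899882) lies inside the gene span given above, so its start site is not the first base of that span. The GC box GGGCGG was in this window, 47 bases before the window's own start site, and in 35.7% of all windows. The 30 bases around these matches are shown so that the letters nearest both start sites can be seen, with the match in capitals:
Esr1 half-site, chr10:4611992-4612021, plus strand: tcctaatttcatGGTCAtaacagcctcgga
Pgr GC box, chr9:8899774-8899803, plus strand: gggaggggctttGGGCGGgccttcctagag
These matches describe letters only, and the expression data do not bear on them. Primer sequences were not used here.

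The values are Ct, the number of PCR cycles until product crosses a threshold. A lower Ct means more template, and 40 stands for no Ct. A gene was called detected below a Ct of 28, and its level was 28 minus Ct. Over the whole panel 52.6% of values were detected, and a cell detected a median of 54 assays (range 9 to 78). The number of detected assays is called depth here. In 8 cells Gapdh, a glycolytic reference gene, came later than a Ct of 18 or had no Ct. Cell 67, which is 1 of them, had no value in the first 71 assays of the table, whereas both receptors lie among the last 25. The sort marker gene Epcam was detected in 77.1% of cells. Intervals are exact (Clopper-Pearson) 95% intervals unless another is named, and they cover counting error only. Beside a count of 0, the share allowed is instead 3 counts divided by the number of cells.

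Of 96 cells, 74 detected Esr1 (77.1%, interval 67.4 to 85.0%), rank 27 of the 96 assays by share. Its Ct ran from 13.2 to 23.8 with a median of 19.8, and the middle 50% of detecting cells lay between 18.9 and 20.9. No cell had an Esr1 Ct between the latest value of 23.8 and the limit of 28, a gap of 4.24 cycles, and the other 22 cells had no Ct at all. Detection of Esr1 therefore did not depend on where the limit was set: the share was 77.1% with a limit of 24, 26 or 28. Such a gap is common on this panel. Among the 53 assays that at least 50% of cells detected, 24 had no detected Ct of 24 or later. The early end was thinner: 4 cells had an Esr1 Ct below 16, 6 lay between 16 and 18, and 31 lay between 18 and 20.

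Pgr was found in fewer cells, 55 of 96 (57.3%, interval 46.8 to 67.3%), rank 48 by share. Its Ct ran from 19.1 to 28.0 with a median of 24.9 in the detecting cells, and 1 further cell had a recorded Ct past the limit. Unlike Esr1, Pgr ran up to the limit. Of the detecting cells 60.0% (33 of 55) had a Ct of 24 or later, against a median of 1.27% over the same 53 assays, and Pgr had the latest median Ct of those 53. With a limit of 26 its share was 42.7%, and with a limit of 24 it was 22.9%. With any recorded Ct counted it was 58.3%, so earlier limits lowered the share and later ones added 1 cell.

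**Figure D1:**
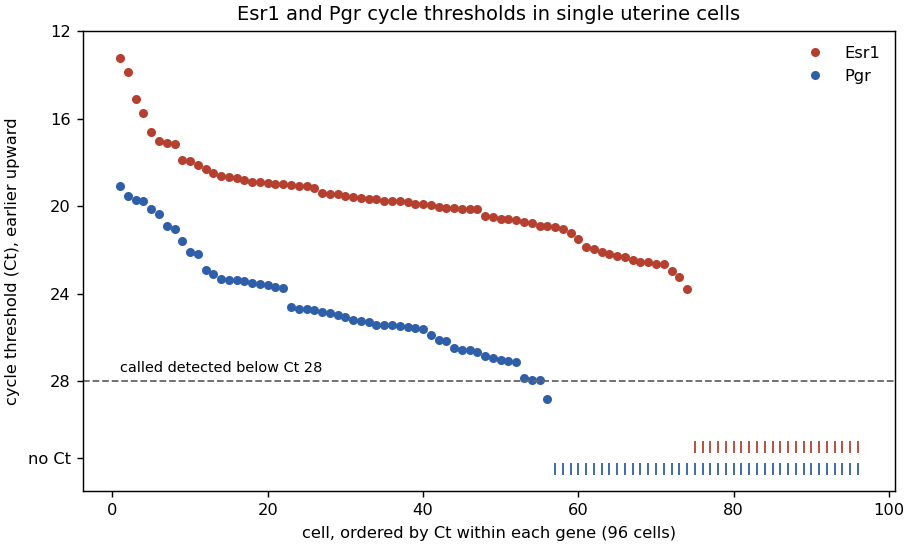
Ct of Esr1 (red) and Pgr (blue) in each of 96 cells, ordered within each gene, with earlier Ct upward and ticks at the bottom for cells with no Ct; the dashed line is the limit of 28. Esr1 stops at 23.8, well before the limit, while Pgr runs from 19.1 up to it.

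Relative to Gapdh in the same cell, Esr1 came 6.96 ± 1.83 cycles later (SD, n = 73 cells with both) and Pgr 11.6 ± 2.14 cycles later (n = 55 cells). The Esr1 delay ranged from 2.15 to 10.9 cycles and that of Pgr from 6.54 to 17.8. The Ct of each receptor followed that of Gapdh across detecting cells, with a Spearman rho of 0.49 (Pearson r = 0.52) for Esr1 and 0.48 (r = 0.46) for Pgr. The median rho with Gapdh was 0.58 over the 65 assays measured together with it in at least 30 cells, so neither receptor followed Gapdh more closely than most assays. Without the low-Gapdh cells the rho of Esr1 was 0.47. These correlations are across cells of 1 chip that share depth, and they carry no p.

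Both receptors were found more often in deeper cells. Counting the 94 other assays, cells with 9 to 45 of them detected Esr1 in 51.9% (14 of 27) and Pgr in 29.6% (8 of 27). Cells with 46 to 53 detected Esr1 in 85.7% (24 of 28) and Pgr in 57.1% (16 of 28), and cells with 54 to 58 in 77.8% (14 of 18) and 72.2% (13 of 18). In the deepest cells, with 59 to 76 other assays, Esr1 reached 95.7% (22 of 23, interval 78.1 to 99.9%) and Pgr 78.3% (18 of 23, interval 56.3 to 92.5%). The lowest class lay apart from the highest for both genes, as their intervals do not overlap, whereas the classes between them overlapped their neighbours. Median Ct moved earlier as well, from 21.8 in the shallowest to 19.2 in the deepest cells for Esr1 and from 25.8 to 23.5 for Pgr. Of the 8 low-Gapdh cells, 2 detected Esr1, and 1 of these was cell 67 with a Ct of 19.1. None of the 8 detected Pgr, which allows a share of up to 37.5%. In the 48 cells with the earlier Gapdh the shares were 89.6% for Esr1 and 66.7% for Pgr, and in the other 48 they were 64.6% and 47.9%.

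**Figure D2:**
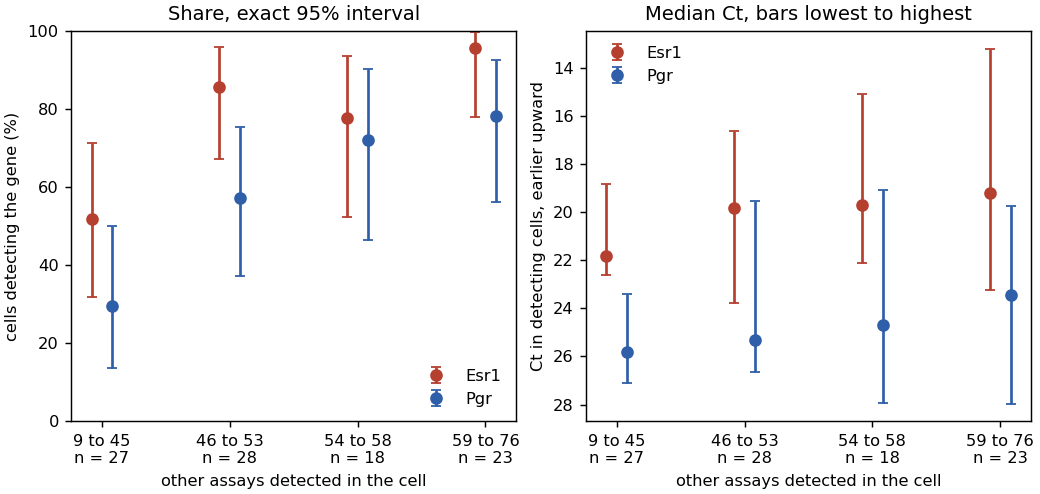
Share of cells detecting each receptor with exact 95% intervals (left) and median Ct in detecting cells with the lowest and highest value as bars (right), by the number of other assays detected in the cell. Esr1 goes from 51.9% to 95.7% and Pgr from 29.6% to 78.3% between the shallowest and deepest cells.

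Most cells carried either both receptors or Esr1 alone. Both were detected in 50 cells (52.1%, interval 41.6 to 62.4%), Esr1 alone in 24 (25.0%), neither in 17 (17.7%) and Pgr alone in 5 (5.21%, interval 1.71 to 11.7%). Of the 55 cells with Pgr, 90.9% also had Esr1, and of the 74 cells with Esr1, 67.6% also had Pgr (interval 55.7 to 78.0%). Of the 22 cells without Esr1, 22.7% had Pgr (interval 7.82 to 45.4%). The difference was 44.8 percentage points, with a Newcombe 95% interval of 21.2 to 60.7. Depth moved with this result. Cells with neither receptor detected a median of 27 other assays and held 6 of the 8 low-Gapdh cells, against medians of 54 for cells with both and 50 for cells with Esr1 alone. In the shallower cells (9 to 53 other assays) Pgr was found in 57.9% of cells with Esr1 (22 of 38) and 11.8% without (2 of 17). In the deeper cells (54 to 76) it was found in 77.8% (28 of 36) and 60.0% (3 of 5), and the interval of that difference ran from -14.6 to 56.2 points.

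Of the 5 cells with Pgr alone, 3 detected at least 55 other assays and 2 lay in the shallowest class. Cell 46 had a Pgr Ct of 22.1 with 64 other assays detected, cell 48 a Ct of 27.0 with 55, cell 51 a Ct of 26.9 with 39 and cell 62 a Ct of 23.7 with 45. Cell 74 had a Ct of 19.1, the earliest Pgr value of all 96 cells, with 58 other assays, a Gapdh Ct of 12.3 and no Esr1 Ct. All 5 detected each of the 6 epithelial markers. At the other end, all 4 cells with an Esr1 Ct below 16 also had Pgr, and 3 of the 4 cells with a Pgr Ct below 20 had Esr1.

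Within the 50 cells that had both, Esr1 came earlier in 48 and Pgr in 2. Pgr followed by a median of 5.14 cycles, and the Pgr Ct minus the Esr1 Ct ranged from -1.19 to 10.1 cycles. The efficiency of either primer pair is not known, so this gap gives a rough order and no ratio of transcripts. The Ct values of both genes were weakly related (rho = 0.36, r = 0.36, and again r = 0.36 once the 2 cells with the most extreme Esr1 Ct were left out). After Gapdh was subtracted from each the rho was 0.20 (r = 0.18), so part of this relation moved with Gapdh.

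**Figure D3:**
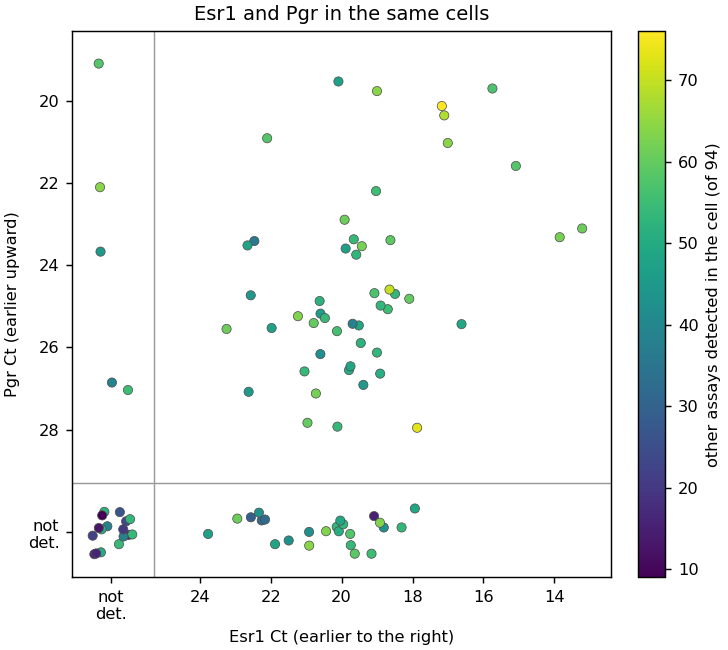
Esr1 Ct against Pgr Ct in 96 cells, with cells lacking a gene in the left and bottom bands (spread at random within the band) and colour for the number of other assays detected. The 50 cells with both scatter widely, 5 cells in the left band have Pgr without Esr1, and the 17 cells with neither are mostly shallow.

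Epithelial identity of the receptor cells was checked against 6 markers: Epcam, Cdh1 (E-cadherin), the simple keratins Krt8, Krt18 and Krt19, and Cd24a. The median cell detected all 6 among cells with both receptors, with Esr1 alone and with Pgr alone, and 5 among cells with neither. Esr1 was found as often without Epcam (77.3%, 17 of 22) as with it (77.0%, 57 of 74), and its median Ct was 19.8 in both. Pgr was found in 59.5% of cells with Epcam and 50.0% of cells without. Markers assigned to other cell types were also present. Of 3 immune markers (Ptprc, Cd40, Il17ra) the median cell detected 2 with both receptors and 1 with neither. The medians were 2 and 1 of 3 for endothelial (Pecam1, Cd34, Eng) and 3 and 2 of 6 for stromal markers (Vim, Thy1, Mcam, Nt5e, Mme and sma). Of the endothelial markers, Pecam1 was detected in 93 of all 96 cells (median Ct 15.3), Cd34 in 49 and Eng in 13. The summed level (28 minus Ct) of the immune markers ranged from 0 to 34.3 in cells with both and from 0 to 18.5 in cells with neither. The ranges were 7.56 to 29.8 and 0 to 17.9 for the endothelial, and 9.92 to 45.5 and 0 to 37.1 for the stromal markers. No measured member of these 3 lists was at 0 in cells with both receptors, while Vim and Thy1 were at 0 in cells with neither. Their part in the receptor values was not tested.

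Nearly every assay was found more often in cells with a receptor. Of 94 other assays found in any cell, 89.4% had a higher share in cells with Esr1 than in cells without, by a median of 15.6 points. For Pgr the figures were 93.6% and 13.4 points. A higher share in receptor cells is thus the rule of this panel and says little about any 1 gene. A difference of at least 30 points was seen for 20.2% of assays with Esr1 and 7.45% with Pgr. In cells detecting both genes of a pair, the Ct of 93.7% of assays had a positive rho with that of Esr1 and 94.4% with that of Pgr (assays with at least 30 such cells). The median of this Ct rho was 0.34 with Esr1 and 0.34 with Pgr. To lessen the part of depth, a linear fit on the number of detected assays was subtracted from each level, with 0 for undetected. The Spearman rho of the residuals was taken for the 85 other assays found in at least 10% of cells. Undetected cells share the level 0, so their residual is a straight line in depth. For assays found in few cells the rho therefore still carries depth. Of all 3655 pairs of assays, 10.3% had such a depth-adjusted rho of at least 0.3 and 3.06% of -0.3 or below. With Esr1 3 assays (3.53%) reached 0.3 and 8 (9.41%) reached -0.3, and with Pgr 4 (4.71%) and 1 (1.18%). A median assay had 8 partners at 0.3 or above and 2 at -0.3 or below.

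The receptors' own depth-adjusted rho was 0.20 (r = 0.16), below 0.3. It kept its sign under all 16 alternatives tried, which reuse the same cells, from 0.14 with a Ct limit of 24 to 0.44 with no adjustment.

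The genes most like Esr1 by this measure were Cd200 (rho = 0.38), an immune-regulating surface glycoprotein gene, and Tdgf1 (0.35), which encodes the Nodal co-receptor Cripto. Cd40 (0.29), a receptor of the tumor necrosis factor family, Fzd4 (0.29), a WNT receptor, and Lgr4 (0.28), an R-spondin receptor, followed. Krt15 (0.26), a keratin of basal layers, Lgr6 (0.25), a relative of Lgr4, and the early embryonic gene Dppa2 (0.25) completed the 8 highest of the assays found in at least 30 cells. Each of these 8 stayed positive under every one of the 16 alternatives, and Cd200 ranged from 0.23 to 0.65. The alternatives reuse the cells in which these 8 were chosen, and 93.7% of assays had a positive Ct rho with Esr1. Staying positive is therefore little separate support. Mst1r, a receptor tyrosine kinase gene found in 26 cells and so outside the rule for named genes, also passed 0.3 (0.35). All of its 26 cells had Esr1, and it was found in 0 of the 22 cells without Esr1, which allows a share of up to 13.6%. It was chosen after its values were seen.

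For some of these genes the difference in share between cells with and without Esr1 was also taken within shallower and deeper cells. Krt15 was detected in 52 of 74 cells with Esr1 (70.3%) and 4 of 22 without (18.2%), a difference of 52.1 points (Newcombe interval 28.9 to 66.3), and it was 43.5 points in the shallower and 46.1 in the deeper cells. Fzd4 was detected in 50 of 74 (67.6%) and 4 of 22 (18.2%), with 48.8 and 35.0 points in the shallower and deeper cells. Tdgf1 was detected in 61 of 74 (82.4%) and 6 of 22 (27.3%), but its difference was 64.6 points in the shallower and 8.89 in the deeper cells. Cd200 likewise had 46.9 and 8.89 points. The deeper class held 5 cells without Esr1, so its differences are coarse, and none of the differences within a depth class was tested.

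The lowest depth-adjusted rho with Esr1 belonged to the integrin gene Itga3 (-0.42), Cd55 (-0.40), a complement regulator gene, the homeodomain gene Hopx (-0.37) and Epcam (-0.36). Wnt7a (-0.36), a WNT ligand of uterine epithelium, Kit (-0.34), Krt18 (-0.33) and Nes (-0.31, found in 23 cells and named after its value was seen) also passed -0.3. All 6 epithelial markers were below 0, from -0.36 for Epcam to -0.06, with a median of -0.25 against 0.00 over all 85 assays. The sign of most of these values depended on the measure. In cells detecting both genes, the Ct of 5 of the 6 epithelial markers had a positive rho with that of Esr1, from -0.09 for Krt18 to 0.31 for Krt19. Itga3 had 0.09 there, Cd55 0.26, Hopx 0.14 and Epcam 0.13. Wnt7a had 0.47 (42 cells), Nes 0.38 (18 cells) and Kit -0.06 (62 cells). Without the adjustment Itga3, Cd55 and Epcam were at 0.00, 0.03 and 0.08. Wnt7a was then at 0.10, Nes at 0.04 and Krt18 at 0.03, while Hopx stayed at -0.08 and Kit at -0.16. Of the 94 assays Itga3 had the largest deficit in share, with 63.5% of cells with Esr1 and 72.7% without, a difference whose interval ran from -27.4 to 14.0 points.

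Dpp4, a surface peptidase gene, was the gene most like Pgr, with a depth-adjusted rho of 0.50 (r = 0.45). It was detected in 24 of 55 cells with Pgr (43.6%) and 6 of 41 without (14.6%), a difference of 29.0 points (Newcombe interval 10.5 to 44.2), with 14.0 points in the shallower and 51.6 in the deeper cells. In the 24 cells with both, their Ct values had a rho of 0.54 (r = 0.57). Under the 16 alternatives its rho ranged from 0.31 to 0.57, and it was 0.47 without the adjustment. With Esr1 the same gene had a depth-adjusted rho of 0.16, but a Ct rho of 0.55 (r = 0.57) in 26 cells. Emx2 (0.38), a homeobox gene of the female tract, was detected in 54.5% of cells with Pgr and 24.4% without, and had -0.06 with Esr1. On Ct in cells detecting both, Emx2 had 0.42 with Pgr (30 cells) and 0.67 with Esr1 (33 cells). Ezh2 (0.25), the Polycomb methyltransferase gene, cd327 (0.24, named as in the file), Lgr4 (0.20), Esr1 itself, Sox9 (0.19), a gland and progenitor factor, and Wnt5a (0.18), a WNT ligand, completed the 8 highest. Sox9 was at -0.19 when Gapdh was subtracted in cells detecting both, and the other 7 stayed positive under every alternative. As with Esr1, the alternatives reuse the cells in which these genes were chosen. Lgr5, an R-spondin receptor gene found in 20 cells, and Fzd10, found in 29, also passed 0.3 (0.39 and 0.31) and were named after their values were seen.

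**Figure D4:**
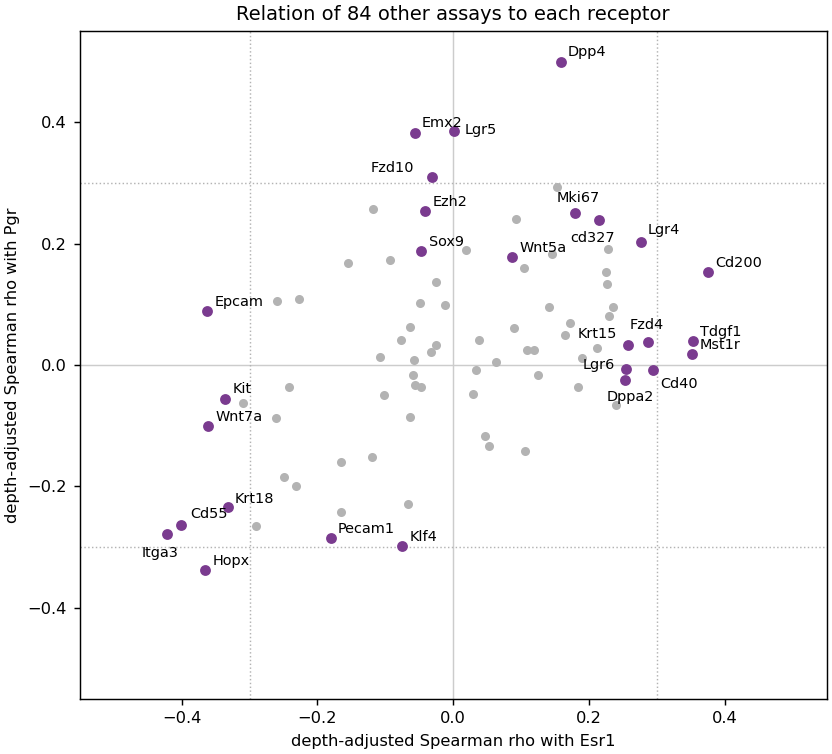
Depth-adjusted Spearman rho of 84 other assays with Esr1 (horizontal) and with Pgr (vertical), each point an assay, dotted lines at 0.3 and -0.3. Cd200, Tdgf1 and Mst1r lie at the right with Pgr values of 0.15, 0.04 and 0.02, while Dpp4, Lgr5 and Emx2 lie at the top with Esr1 values of 0.16, 0.00 and -0.06.

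At the low end for Pgr stood Hopx (-0.34), the transcription factor gene Klf4 (-0.30), the endothelial adhesion gene Pecam1 (-0.29) and Itga3 (-0.28). Itga3 was found in 60.0% of cells with Pgr and 73.2% without. For Pecam1, found in 93 cells, the Ct also ran against that of Pgr in the 55 cells with both (rho = -0.38, r = -0.40). It was the lowest such value among the 54 assays with at least 30 cells, whose median was 0.34. With Gapdh subtracted from both it was 0.05. For Klf4 the Ct rho was -0.15. The values of Hopx and Itga3 turned positive there, at 0.09 and 0.20.

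Of 7 measured genes linked to estrogen action (Myc, Igf1r, Mki67, Wnt5a, Wnt7a, Ezh2 and Krt19), 0 reached 0.3 with Esr1, beside 3.53% of all assays, and 1 (Wnt7a) was below -0.3, beside 9.41%. Their median rho was -0.06 with Esr1 and 0.01 with Pgr. On Ct in cells detecting both, Wnt7a had a rho of 0.47 with Esr1 (42 cells), beside a median of 0.34 over assays with at least 30 such cells. The cell cycle gene Mki67 was detected in 28 of 74 cells with Esr1 (37.8%) and 1 of 22 without (4.55%), by 33.3 points, which was 23.7 points in the shallower and 32.8 in the deeper cells. Its cells detected a median of 57 other assays, against 50 for those without. In the 20 cells with both Mki67 and Pgr, fewer than the 30 set for the medians of Ct rho, their Ct values had a rho of 0.73 (r = 0.69). Both genes came late, with 21 of 29 Mki67 values and 33 of 55 Pgr values at a Ct of 24 or later. The Ct rho of Mki67 with Esr1 was 0.31 (r = 0.18) in 28 cells. Wnt5a had the highest Ct rho of the list with Esr1, 0.72 (r = 0.77) in 34 cells. With Pgr it had 0.55 (r = 0.50) in 31 cells, beside a median of 0.34 over assays with either receptor. It was also found in 31 of 55 cells with Pgr (56.4%) and 9 of 41 without (22.0%), 48.7 points in the shallower but -5.16 in the deeper cells.

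Of 5 measured genes linked to progesterone action (Hoxa10, Hoxa11, Foxa2, Itgb3 and Dpp4), 4 were frequent enough for a rho. Of these 1, Dpp4, passed 0.3 with Pgr, beside 4.71% of all assays, and the median was 0.19 with Pgr and 0.15 with Esr1, beside 0.03 and 0.00 over all assays. That 4.71% includes Dpp4 itself, the gene already named as most like Pgr. The list was also chosen with earlier results of these data known, so its pass is no separate support. The homeobox gene Hoxa10, needed for implantation, was detected in 11 cells, and all 11 had both Esr1 and Pgr. It was found in 0 of 41 cells without Pgr, which allows a share of up to 7.32%. Its cells were deep, with a median of 58 other assays. Hoxa11 was detected in 38.2% of cells with Pgr and 19.5% without (difference interval 0.06 to 34.8 points), but in 29.7% with Esr1 and 31.8% without. The gland factor gene Foxa2 was detected in 7 cells, all with Esr1 and 4 with Pgr.

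Among other lists, 8 WNT receptors and mediators had a median rho of 0.11 with Esr1 and 0.04 with Pgr. None of the 8 passed 0.3 with Esr1, beside 3.53% of all assays, and 2 (Lgr5 and Fzd10) did with Pgr, beside 4.71%. Of these 8, 4 were at least 30 points more frequent in cells with Esr1 (Fzd4, Lgr6, Lgr4 and Ctnnb1), beside 20.2% of all assays. Of 5 growth factor receptors (Igf1r, Igf2r, Insr, Kit and Mst1r), Mst1r passed 0.3 with Esr1 (3.53% of all assays did) and Kit -0.3 (9.41%), and none passed either with Pgr (4.71% and 1.18%). The 6 patterning genes had medians of -0.04 with Esr1 and 0.15 with Pgr, and the 3 gland genes 0.00 and 0.19. The 3 immune markers had a median of 0.13 with Esr1 and -0.02 with Pgr, beside 0.00 and 0.03 over all assays. Ptprc was found in 68.9% of cells with Esr1 and 27.3% without, and in 69.1% with Pgr and 46.3% without.

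Among cells with Esr1, those that also had Pgr detected Lgr5 in 30.0% (15 of 50) and those without Pgr in 4.17% (1 of 24), Dpp4 in 44.0% and 16.7%, and Hoxa11 in 38.0% and 12.5%. The exact intervals of both classes overlapped for each of these 3 genes, and the differences were not tested. Tdgf1 was at 82.0% and 83.3% in the same cells, and Krt15 at 70.0% and 70.8%. In cells with neither receptor they were at 23.5% and 11.8%. Lgr5 and Dpp4 were already known from these same cells to be among the assays most like Pgr, and Tdgf1 and Krt15 among those most like Esr1. Their contrasts between classes follow from that choice and are no separate support. Other assays differed as well, such as Fut4 at 52.0% with both receptors and 16.7% with Esr1 only.

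**Figure D5:**
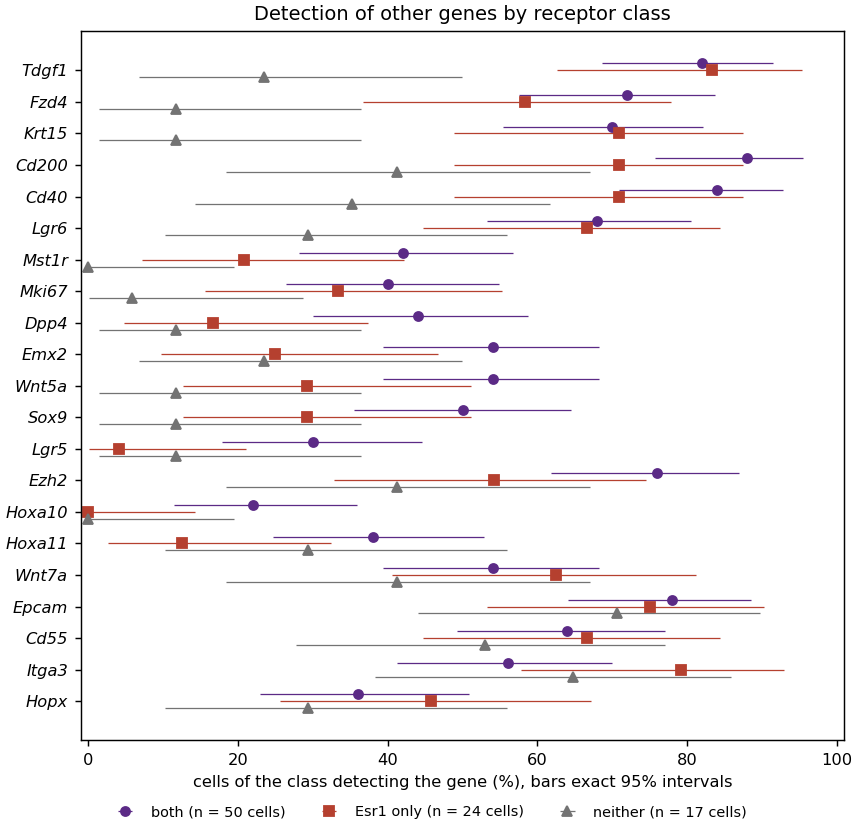
Share of cells detecting each of 21 genes among the 50 cells with both receptors (circles), the 24 with Esr1 only (squares) and the 17 with neither (triangles), with exact 95% intervals; the 5 cells with Pgr only are not drawn. Tdgf1 and Krt15 are alike in the first 2 classes and lower in the last, whereas Lgr5 is at 30.0% with both receptors and 4.17% with Esr1 only, with intervals that overlap. The genes drawn were chosen with their relation to the receptors in these cells known.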

How the data were processed

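The deposited Ct values, a score that falls as template rises, are raw per the file headers, with 40 for no Ct. A second table deposited by the authors holds a ratio, the fold to Gapdh and then to cell 1. Recomputed folds matched it to within 6.55e-06 on the log2 scale. Per the labels' protocols, single cells were preamplified with a 1-step RT-PCR kit and run on a 96 by 96 Fluidigm Biomark chip with EvaGreen. Nothing on threshold settings or quality filters was given in the sources used here.

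Shares, levels (28 minus Ct, assuming a doubling each cycle), co-detection and Spearman rho were computed over 96 cells with numpy 2.4.6, scipy 1.17.1, pandas 2.3.3 and matplotlib 3.10.9 under Python 3.11.15. The rho step was tested on simulated data. No p was computed because the cells form 1 group and are no replicates. Other Ct limits, subsets of cells, adjustments and coefficients were tried. Named genes are the 8 highest and 4 lowest by depth-adjusted rho among assays found in at least 30 cells, with the members of fixed lists. The lists fixed were steroid receptors, estrogen-linked, progesterone-linked, growth factor receptors, patterning, gland, WNT, cycling, epithelial, basal, stromal, endothelial and immune genes. The members and lists were chosen with earlier results of these data known. The 3 cycling genes (Mki67, Ezh2, Myc) had a median rho of -0.04 with Esr1 and 0.25 with Pgr. Of the basal list, Krt15 and Trp63 were measured.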

Additional observations from a re-analysis of the deposited data

How the results depend on the processing

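The share of Esr1 stayed within its interval under all 9 alternatives (75.9 to 83.9%). That of Pgr was 22.9% with a Ct limit of 24 and 42.7% with 26, and that of both receptors 19.8% and 39.6%. The mean level of Esr1, 8.21 ± 2.02, and of Pgr, 3.64 ± 2.33, follow the scale: 4.21 for Esr1 with a limit of 24, 20.2 and 15.6 with any recorded Ct, and -6.96 and -11.6 relative to Gapdh. The difference in Pgr between cells with and without Esr1 was 12.0 points with a limit of 24 and 17.8 in the deeper cells. The rho of Esr1 with Pgr, 0.20, was 0.32 in the 63 cells that detected Gapdh, Hprt and actin, 0.44 without adjustment, 0.36 on Ct in cells detecting both and 0.31 on deposited folds.

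Assays with a rho of at least 0.3 with Esr1 rose from 3 to 6 with a limit of 24, with any recorded Ct or with depth counted without the pair (chosen after the data were seen). They were 5 with Epcam, 9 without low-Gapdh cells, 7 without the 10% of cells with the fewest assays, 39 without adjustment, 7 with Pearson r, 54 on Ct in cells detecting both, 24 on Gapdh minus Ct and 10 on deposited folds. With Pgr they went from 4 to 15 with a limit of 24, 8 with 26, 1 with any recorded Ct, 9 with all reference genes, 28 without adjustment, 47 on Ct in cells detecting both and 19 on Gapdh minus Ct. The cause was not tested.

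Named values at 0.3 or beyond (either sign) that changed sign were those of Itga3, Cd55 and Epcam with Esr1 without adjustment (0.0013, 0.032 and 0.081), those of Itga3, Cd55, Hopx and Epcam on Ct in cells detecting both (0.094, 0.26, 0.14 and 0.13), Cd55 on Gapdh minus Ct (0.22) and Hopx with Pgr on Ct in cells detecting both (0.086). Of 368 values of named genes under the alternatives, 283 moved by less than 0.1, 76 moved further and these 9 reversed. Sox9, Pecam1 and Itga3 with Pgr, whose main values lay between -0.3 and 0.3, also changed sign under some alternatives. Those values are counted among the 76. Without cell 67 the counts at 0.3 were 4 with Esr1 and 4 with Pgr. No paired analysis was possible because the labels give 1 group. A share over 96 cells is known to about 10 percentage points at 50%, and 33 of the 55 Pgr values lay within 4 cycles of the limit set for detection.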
